A study of Homo sapiens with 5 samples.

Results

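ZBTB7A-bound regions that carried a peak in full serum and in vehicle-treated cells, but none after androgen treatment, numbered 4002 of 148985 merged regions (2.69%) and are called members here. The regions were chosen by the presence and absence of called peaks: they were found by merging ZBTB7A peaks that overlapped by at least 1 bp on chromosomes 1 to 22 and X, and by keeping the regions with an FBS peak and a CSS peak and no DHT peak. The peaks come from chromatin immunoprecipitation and sequencing (ChIP-seq) with an antibody against ZBTB7A in VCaP, an established prostate cancer cell line that expresses the androgen receptor. In the DHT group (2 libraries), cells received 10 nM of the androgen dihydrotestosterone for 4 hours in phenol red free RPMI medium with 5% CSS, a serum depleted of hormones. The FBS group (1 library) was grown in DMEM with 10% full serum. In the CSS group (2 libraries), cells received vehicle for 4 hours in the same depleted medium as the DHT group. All 5 libraries carry 1 common treatment text, and that FBS cells were given no DHT is read from their culture condition and the series design.

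ZBTB7A, also called LRF or Pokemon, is a transcription factor with a BTB domain, through which it pairs with itself and recruits corepressors, and with zinc fingers that bind GC-rich DNA. It is known for silencing fetal globin genes in red cell precursors and for repressing genes of glycolysis. Dihydrotestosterone binds the androgen receptor, which then enters the nucleus and binds DNA, and full serum itself contains steroid hormones. The CSS and DHT groups ask how ZBTB7A binding differs with and without added androgen in the same medium. The FBS group differs from both in base medium, in kind and percent of serum and in number of libraries. Androgen cannot be told apart from these in any class that uses the FBS list. The regions described here are those where the DHT list lacks a peak that both other lists hold.

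Each condition is given as 1 peak list, with 33236 DHT, 123651 FBS and 36674 CSS peaks on the chromosomes used. No spread between replicates can be measured, no p-value between conditions is given, and every statement on presence is a statement on a list. Read totals are not part of the lists, and the depth behind each is unknown. Absence from the DHT list means that no peak passed the authors' peak caller there, not that no signal was present. Fold enrichment over background and −log10 q, the caller's measure of confidence, are the authors' own values and describe a peak within its own list. Intervals in brackets are exact 95% Clopper-Pearson intervals, which cover counting error only and treat neighbouring regions as independent. Positions are on hg19 with a first base of 1, and regions are not assigned to genes, because no gene annotation of that build was used.

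The 4002 regions held 3.32% (3.22 to 3.42%) of the FBS peaks and 11.2% (10.9 to 11.5%) of the CSS peaks. Nearly all were simple: 3821 held exactly 1 FBS and 1 CSS peak, 104 held more than 1 FBS peak, and 93 held more than 1 CSS peak. Together they covered 1.95 Mb. Their widths ran from 215 to 2210 bp with a median of 425 bp, and 133 (3.32%) were at least 1000 bp wide. Regions with a peak in every list had a median width of 705 bp, and regions seen in CSS alone had a median of 192 bp.

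Set against the regions that could have lost a DHT peak, the 4002 regions were a share of 25.9% (25.3 to 26.6%) of the 15426 regions with FBS and CSS peaks. The mirror class, regions with DHT and FBS peaks and no CSS peak, held 3895 regions (2.61% of all merged regions), or 25.4% (24.7 to 26.1%) of the 15319 regions with DHT and FBS peaks. The intervals of the pair overlapped, and which share was the higher depended on the peaks used. Both shares count the same FBS list and the same 11424 regions with a peak in every list, so they are not independent of each other. For comparison, 43.1% (42.4 to 43.8%) of the 20080 regions with DHT and CSS peaks had no FBS peak. With peaks of a −log10 q of at least 10 in all lists, where a weaker peak of the missing list no longer counts, the shares were 49.7% without a DHT peak and 32.3% without a CSS peak. The order turned when each list was cut to its strongest peaks, as many as the shortest list holds, at 18.3% (17.5 to 19.2%) without a DHT peak and 21.1% (20.2 to 21.9%) without a CSS peak, and with a fold enrichment of at least 5, at 24.5% and 27.0%. These shares follow from the rule that chose the regions and are a description.

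The CSS peaks of these regions were weak ones of their list, while the FBS peaks spread over the whole FBS list. The FBS peak had a median −log10 q of 5.04 (quartiles 3.83 and 7.17), a median fold enrichment of 4.50 (3.87 and 5.23) and a median position at percentile 63.4 of its list (34.4 and 86.9). The CSS peak had a median −log10 q of 4.22 (3.43 and 5.57), a median fold enrichment of 5.09 (4.60 and 5.87) and a median position at percentile 37.9 (18.7 and 57.2). A percentile of 100 marks the highest −log10 q of a list. Where a region held a peak in every list, the median positions were percentile 84.2 for FBS and 66.7 for CSS, and regions seen in CSS alone had their CSS peak at percentile 27.9. The members thus stood between these classes in the CSS list.

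Few of the CSS peaks stood high in their list. Equal thresholds need not mark equal strength in different lists, so the counts are set against other classes of the same list. A −log10 q of at least 10 was reached by 392 of the FBS peaks (9.80%) and by 80 of the CSS peaks. Among regions with a peak in every list the corresponding shares were 27.4% and 21.5%. The best-ranked FBS peak stood at rank 124 of 124868 in the FBS list, and the best-ranked CSS peak at rank 742 of 37782 in the CSS list. In the highest of 10 parts of each list by percentile stood 812 of the FBS peaks and 30 of the CSS peaks. The 11424 regions with a peak in every list had 4765 FBS and 1688 CSS peaks there. The 3895 regions of the mirror class had 829 FBS peaks there. In the mirror class the DHT peak lay at a median percentile of 34.6 and the FBS peak at 63.4, close to the CSS and FBS positions of the members.

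The commonest pairing was an FBS peak ranked high in its list over a CSS peak ranked low in its own. These are ranks within lists of different length, and the median −log10 q of the whole list was 4.26 in FBS and 4.96 in CSS, so a high FBS rank need not mean a higher −log10 q than a low CSS rank. Of the 4002 regions, 1613 (40.3%) had their FBS peak above percentile 50 and their CSS peak at or below it, and 413 (10.3%) had the opposite. Both peaks lay above percentile 50 in 899 regions (22.5%), and neither did in 1077 (26.9%). With a peak in every list, the share with both above percentile 50 was 52.7% and the share with neither was 7.41%. Spearman's rho between the FBS and CSS percentiles was 0.12 over the 4002 regions and 0.04 over the 11424 regions with every peak. This is a description over regions that share their libraries.

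**Figure D1:**
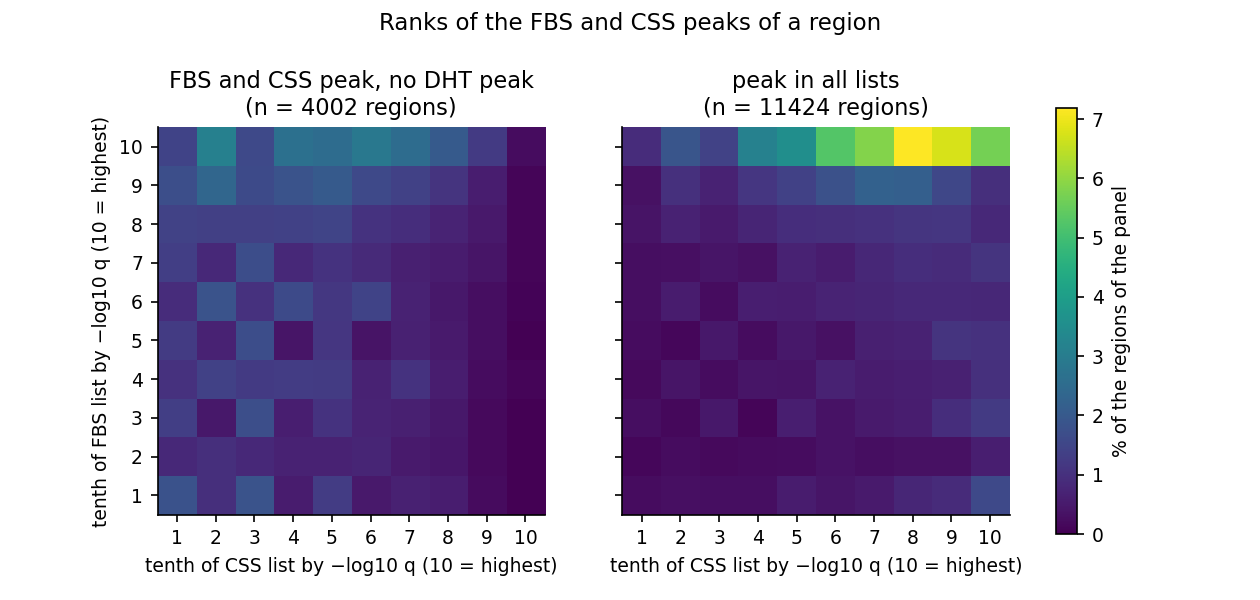
Share of regions (colour, in % of the regions of each panel) by the CSS part (x axis) and FBS part (y axis) of their strongest peaks. Each list is divided into 10 parts by percentile of −log10 q, with tied peaks kept together. Shown are the 4002 members (left) and the 11424 regions with a peak in every list (right). The column of the highest CSS part is nearly empty on the left, where it holds 30 regions, while the top row, the highest FBS part, holds 812.

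The share of regions without a DHT peak fell steeply with the rank of the CSS peak and less with the rank of the FBS peak. Each list was divided into 10 parts by percentile of −log10 q. Peaks with tied values stay in the same part, so the parts are not of equal size. In the lowest part of the CSS list, 58.5% (55.2 to 61.8%) of the regions with FBS and CSS peaks had no DHT peak. In part 5 the share was 33.7% (31.4 to 36.0%), in part 8 it was 14.6% (13.1 to 16.2%), and in part 10 it was 1.75% (1.18 to 2.48%). The decline was broken between part 2 (46.3%) and part 3 (51.1%). Ranked by the FBS peak, the share lay between 30.3% and 41.3% in parts 1 to 8, and was 27.5% in part 9 and 14.6% (13.6 to 15.5%) in part 10.

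The mirror class gave curves that also fell with rank. Of the regions with DHT and FBS peaks, the share without a CSS peak was 50.8% (48.0 to 53.7%) in the lowest part of the DHT list and 2.87% (2.10 to 3.82%) in the highest. The members' share was above the mirror share, with intervals that did not overlap, in part 1 (58.5% against 50.8%), part 3 (51.1%, 48.2 to 54.1%, against 38.5%, 35.9 to 41.0%) and part 5 (33.7% against 28.8%, 26.7 to 31.0%). The mirror share was the higher one in parts 4, 6, 9 and 10, with intervals that overlapped. Ties fall differently in the CSS and DHT lists, so parts of the same number need not hold equal fractions of their lists. Ranked by the FBS peak, the mirror share was 14.8% (13.9 to 15.8%) in part 10, with an interval that overlapped that of the members.

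**Figure D2:**
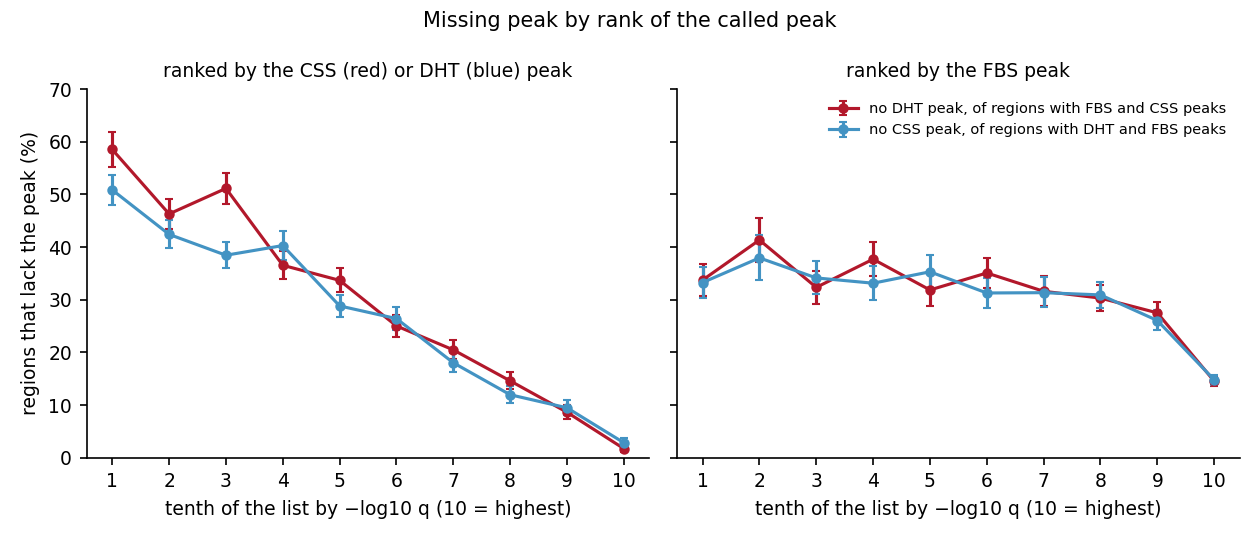
Share of regions that lack the peak of the remaining list (y axis, %) by part of a list (x axis, 10 parts by percentile, 10 = highest −log10 q). Red, no DHT peak among regions with FBS and CSS peaks; blue, no CSS peak among regions with DHT and FBS peaks; bars are exact 95% intervals. Ranked by the CSS or DHT peak (left), the red share is 58.5% in the lowest part and 1.75% in the highest; ranked by the FBS peak (right), it stays above 30% up to part 8.

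Regions that lacked a DHT peak became fewer as a higher −log10 q was asked of the FBS and CSS peaks while a DHT peak of any strength counted as present. With a −log10 q of at least 5 in FBS and in CSS, 774 of 6307 regions had none (12.3%, 11.5 to 13.1%). At 8 the count was 74 of 1688 (4.38%, 3.46 to 5.47%), at 10 it was 12 of 790 (1.52%, 0.787 to 2.64%), and at 12 it was 2 of 411 (0.487%, 0.0590 to 1.75%). The mirror class fell in the same way, with 743 of 6009 (12.4%) at 5, 45 of 1357 (3.32%) at 8, 6 of 585 (1.03%, 0.377 to 2.22%) at 10 and 0 of 317 at 12 (exact upper bound 1.16%, or 0.946% by the limit of 3 counts). At each of these thresholds the intervals of the members and of the mirror class overlapped. With the same −log10 q of at least 10 asked of all 3 lists, so that a weaker DHT peak counted as missing, 389 of 783 regions (49.7%, 46.1 to 53.2%) had none.

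The 20 regions for which the lower of the FBS and CSS percentiles was highest are the strongest cases of a peak in full serum and with vehicle but not with DHT. Their lower percentile ran from 87.6 to 92.4, their FBS peaks ranked from 1280 to 11854 and their CSS peaks from 1967 to 4682. FBS −log10 q lay between 7.91 and 16.6, and CSS −log10 q between 10.7 and 15.1. They were spread over 10 chromosomes, with 6 on chromosome 1 and 4 on chromosome 3. The nearest DHT peak was a median of 15593 bp away, within 500 bp at 5 of the 20 and beyond 10000 bp at 12. Over all members the median distance was 19496 bp, with a DHT peak within 500 bp of 14.8% and within 10000 bp of 35.0%. The 20 strongest cases thus did not stand farther from DHT peaks than members in general.

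The region that led this order lay at chr1:174969180-174969603, with a −log10 q of 10.8 in FBS and 13.1 in CSS, fold enrichments of 7.21 and 9.93, and summits 74 bp apart. A DHT peak stood only 28 bp from its edge, so it is a member by a narrow gap. A region at chr1:24194319-24195388 was a clearer case, with 8.92 in FBS and 12.8 in CSS, summits 13 bp apart and no DHT peak within 14243 bp. At chr1:11538500-11539765 the FBS peak had a −log10 q of 7.95 and filled the whole region of 1266 bp, the CSS peak reached 15.1 (rank 1967), and the nearest DHT peak was 12212 bp away. Those summits were 377 bp apart, so the FBS and CSS maxima of this wide region were at different places.

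The region with the most isolated position among the 20 lay at chr1:95006791-95007466, with a −log10 q of 14.9 in FBS and 10.9 in CSS. Its summits were 361 bp apart, and the next DHT peak was 122368 bp away. At chr12:104518888-104519311 the values were 7.91 in FBS and 10.9 in CSS, with summits 49 bp apart and 60072 bp to a DHT peak. At chr4:147096894-147097474 the values were 10.6 and 11.9, with summits 166 bp apart and 20372 bp to a DHT peak. These 3 regions had fold enrichments of 6.25 to 7.85 in FBS and 8.90 to 9.54 in CSS. The smallest of their gaps to a DHT peak, 20372 bp, was close to the median of 19496 bp over all members. Others of the 20 lay at chr6:36410559-36411459 (11.8 in FBS, 10.8 in CSS, 19256 bp to a DHT peak), at chr5:180257916-180259020 (9.43, 11.3, 19861 bp) and at chr10:135450829-135451451 (8.46, 11.03, 26938 bp). Their summits were 123, 43 and 320 bp apart in that order.

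Other regions of the 20 had a DHT peak within 500 bp that shared no base with them. At chr3:74663715-74664264 the gap was 74 bp, at chr3:125485085-125485578 it was 161 bp, and at chr3:63849913-63850367 it was 326 bp. The FBS −log10 q values at these 3 were 9.82, 9.67 and 9.28, and the CSS values were 11.4, 12.4 and 10.8. At chr2:89867311-89867625 the gap was 414 bp, and both fold enrichments were low for their q-values, at 4.88 in FBS and 5.00 in CSS. Also among the 20 was chr4:41218080-41218819, with 12.5 in FBS and 12.2 in CSS and a DHT peak 1225 bp away.

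The extremes of each list were looked up after their values had been seen. Among the members, the FBS peak with the highest −log10 q lay at chr16:46405098-46405537, at 35.5 (rank 124) with a fold enrichment of only 3.82. Its CSS partner had 3.14 and 1.90, and a DHT peak stood 1013 bp away. This region lay 18.3 kb from the longest stretch of its chromosome without a peak in any list. Next came chr20:46523425-46523980, with 30.1 in FBS (fold enrichment 8.09) and 5.96 in CSS, and chr12:15373927-15374589, with 29.6 in FBS (fold enrichment 12.9) and 8.88 in CSS. Their summits agreed within 5 and 56 bp, and the nearest DHT peaks were 10016 and 8681 bp away. The CSS peaks of members that scored highest by −log10 q were chr9:69708509-69708843 (6.13 in FBS, 20.6 in CSS), chr1:59762103-59762868 (7.25 and 20.1) and chr7:61967893-61968118 (5.31 and 19.1). The region on chromosome 7 had fold enrichments of 1.95 in FBS and 2.80 in CSS, and a DHT peak 565 bp away. It lay 912 kb from the longest peak-free stretch of its chromosome.

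The 5 widest regions were formed by broad FBS peaks or by several peaks joined together, with modest CSS peaks. The widest, of 2210 bp at chr7:157939604-157941813, held 2 FBS and 3 CSS peaks. Its strongest FBS peak had a −log10 q of 17.95 at rank 999, while its strongest CSS peak had 4.27. The others lay at chr12:63543920-63545905 (6.74 in FBS, 5.62 in CSS) and chr12:1701881-1703515 (7.31, 4.96), at chr2:154334080-154335702 (5.93, 4.45) and at chr9:104499588-104501157 (10.1, 3.97). Their summits were 435 to 1076 bp apart, so width here did not mean a shared maximum.

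A minority of the regions had a DHT peak close to their edge. The median distance to the nearest DHT peak was 19496 bp (quartiles 5547.5 and 47985.5). A DHT peak lay within 100 bp of 180 regions (4.50%, 3.88 to 5.19%), within 500 bp of 593 (14.8%, 13.7 to 16.0%) and within 1000 bp of 729 (18.2%, 17.03 to 19.4%). In the mirror class, a CSS peak lay within 500 bp of 12.1% (11.1 to 13.2%), an interval that did not reach that of the members. A DHT peak lay within 500 bp of 7.35% (6.87 to 7.86%) of the regions seen in CSS alone and of 3.19% (3.08 to 3.29%) of those seen in FBS alone. Regions with FBS and CSS peaks thus had a DHT neighbour more often than regions with only one of these peaks, before any allowance for their greater width.

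**Figure D3:**
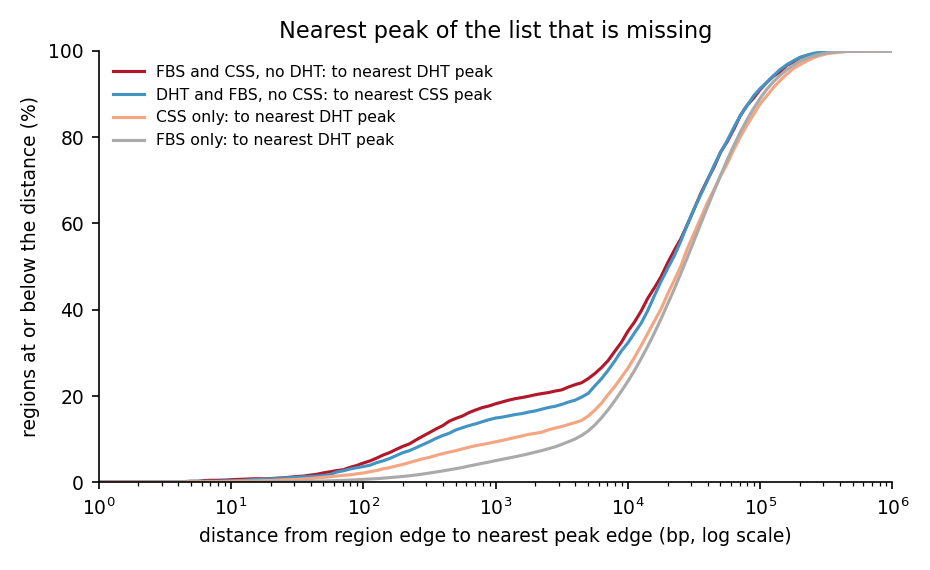
Cumulative share of regions (y axis, %) by distance from the region's edge to the nearest peak of the missing list (x axis, bp, log scale). Red, regions with FBS and CSS peaks to the nearest DHT peak; blue, regions with DHT and FBS peaks to the nearest CSS peak; orange and grey, regions of CSS alone and of FBS alone to the nearest DHT peak. At 1000 bp the red curve stands at 18.2% and the grey at 5.05%.

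The DHT peaks beside the 593 regions were of middling rank, with a median percentile of 40.9 (quartiles 19.6 and 61.4) in the DHT list. Of them, 246 belonged to a region with a peak in every list, 135 to a region of DHT alone, 125 to a region with DHT and FBS peaks, and 87 to a region with DHT and CSS peaks. Exactly at the boundary, 3 regions touched a DHT peak without sharing a base. They lay at chr17:1627701-1628129, at chr2:26569026-26569384 and at chr4:129209099-129209863, and the touching DHT peaks had −log10 q values of 4.48, 4.51 and 4.29. Just outside the rule, 8 of the 11424 regions with a peak in every list had a DHT peak that shared at most 10 bp with an FBS or CSS peak, and 182 (1.59%) shared at most 100 bp. The closest were at chr12:132111416-132112317 and at chr4:107200-108004, with 3 bp shared. In 273 regions of that class (2.39%) the DHT peak overlapped the FBS peak only, and in 228 the CSS peak only.

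Within the 4002 regions, the FBS and CSS summits lay closer together than in regions with a peak in every list. The rule did not use summit positions beyond the overlap of the peaks. The median distance in the members was 100 bp (quartiles 44 and 185), and 50.1% (48.5 to 51.6%) had summits within 100 bp. Where a peak was present in every list, the FBS and CSS summits were farther apart, at a median of 128 bp (57 and 262) with 41.6% (40.7 to 42.5%) within 100 bp. The difference held at CSS percentiles of up to 25, 25 to 50, 50 to 75 and over 75, where in that order the share within 100 bp was 50.2%, 52.0%, 46.0% and 53.0% in the members against 39.6%, 44.5%, 38.2% and 43.5% in regions with every peak. Over percentile 75 the intervals were 47.6 to 58.4% and 42.02 to 45.0%. The mirror class was closer still, with DHT and FBS summits at a median of 90 bp and 54.4% (52.8 to 56.0%) within 100 bp. In regions with DHT and CSS peaks and no FBS peak, the DHT and CSS summits lay at a median of 47 bp. Of these regions, 76.9% (76.0 to 77.7%) had them within 100 bp. In regions with every peak, the DHT and CSS summits lay at a median of 81 bp, with 56.5% within 100 bp. Close summits were thus not particular to the members. Regions with every peak were wider, which leaves more room for distant summits, and the part of width in this difference was not tested.

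**Figure D4:**
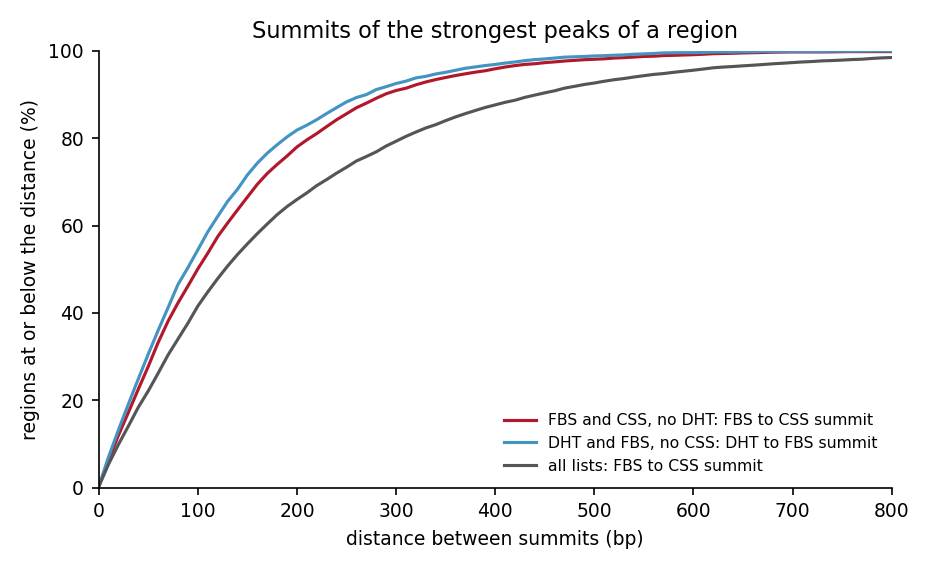
Cumulative share of regions (y axis, %) by distance between the summits of their strongest peaks (x axis, bp). Red, FBS to CSS summit in the 4002 members. Blue, DHT to FBS summit in the mirror class. Grey, FBS to CSS summit in regions with a peak in every list. At 100 bp the red curve stands at 50.1%, the blue at 54.4% and the grey at 41.6%.

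The FBS peak was usually the wider of the pair. Its median width was 330 bp (quartiles 249 and 496), against 223 bp (191 and 297) for the CSS peak, and it was wider in 3240 of the 4002 regions (81.0%). The narrowest peaks differed between the lists, at 215 bp in FBS and 191 bp in CSS. Within 2 bp of that minimum were 10.6% of the FBS peaks and 32.4% of the CSS peaks of these regions. The CSS peak lay wholly inside the FBS peak in 1316 regions (32.9%), and the reverse was seen in 142 (3.55%). The CSS summit fell inside the FBS peak in 77.6%. The median overlap was 191 bp, and 243 regions (6.07%) were joined by fewer than 50 bp. Among regions with every peak, the FBS peak was wider than the CSS peak in 69.3%. There the CSS peak lay wholly inside it in 33.9%, and the overlap was under 50 bp in 7.99%. In the mirror class the DHT peak was wider than the FBS peak in 16.1% and lay wholly inside it in 34.0%. A wider FBS peak was thus not particular to the members.

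Among the 14992 regions with a CSS peak and no DHT peak, the presence of an FBS peak went with the width of the CSS peak. An FBS peak was present in 26.7% (26.0 to 27.4%) of them, and these are the 4002 regions described here. The share was 19.3% (18.5 to 20.2%) where the CSS peak was narrower than 200 bp, 30.02% (28.8 to 31.3%) from 200 to 300 bp, 39.01% from 300 to 400 bp, 51.9% (48.01 to 55.8%) from 400 to 600 bp, and 70.1% (60.0 to 79.0%) at 600 bp or more. By part of the CSS list the share was 17.3% in part 1 and 41.3% (37.7 to 45.0%) in part 8, and 29.4% (20.8 to 39.3%) in part 10, where only 102 such regions remained. For DHT peaks without a CSS peak the share with an FBS peak also went with width, from 26.3% below 200 bp to 77.8% (60.8 to 89.9%) at 600 bp or more. A wider peak has a greater chance of meeting any other peak, and how much of the trend this gives was not tested.

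The regions were spread over every chromosome used, and their share of the regions from which they could be drawn differed between chromosomes. The share of regions with FBS and CSS peaks that had no DHT peak lay between 20.7% on chromosome 21 and 33.7% on chromosome X. For 5 of the 23 chromosomes the interval left out the overall 25.9%. It was above on chromosomes X (33.7%, 28.2 to 39.5%), 16 (32.8%, 27.5 to 38.4%) and 19 (31.3%, 27.4 to 35.3%), and below on 11 (22.8%, 20.1 to 25.8%) and 12 (22.4%, 19.6 to 25.4%). Intervals were not adjusted for the number of chromosomes. The mirror share was also high on chromosomes X (35.5%, 30.02 to 41.3%), 16 (33.4%, 28.1 to 39.1%) and 19 (33.3%, 29.5 to 37.4%), so on these chromosomes a peak was missing more often from either list. The mirror share counts the same FBS list and the same regions with every peak.

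**Figure D5:**
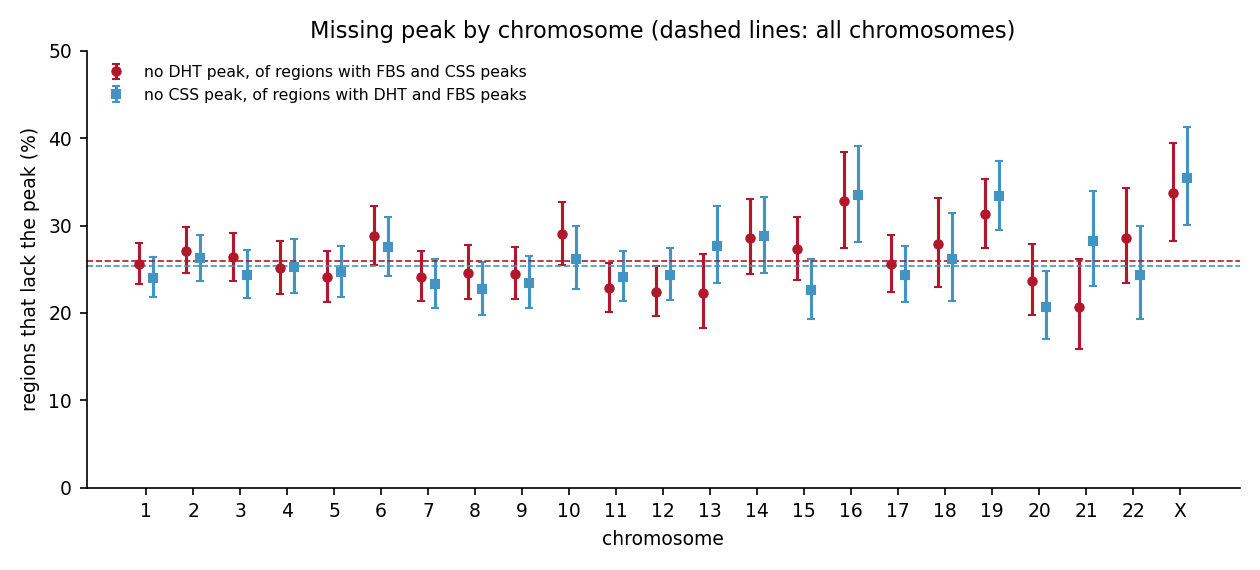
Share of regions that lack the peak of the remaining list (y axis, %) on each chromosome (x axis). Red circles, no DHT peak among regions with FBS and CSS peaks; blue squares, no CSS peak among regions with DHT and FBS peaks; bars are exact 95% intervals and dashed lines the shares over all chromosomes. Chromosomes 16, 19 and X lie above both lines for both shares.

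Members were scattered along the chromosomes, and no window of 1 Mb held more than 10. Of 2887 windows of 1 Mb with any region, 1905 (66.0%) held at least 1 member, 832 held exactly 1, and 128 held 5 or more. The fullest window, at chr17:80000001-81000000, held 10 members beside 4 regions of the mirror class and 13 with every peak. The window at chr7:100000001-101000000 held 9, beside 3 of the mirror class and 13 with every peak. A tie of 5 windows followed with 8 members each: chr19:53000001-54000000 and chr19:47000001-48000000, chr10:43000001-44000000, chr8:144000001-145000000, and chr22:21000001-22000000. The mirror class numbered 10, 7, 2, 3 and 2 in these 5 windows in that order, and regions with every peak numbered 5, 6, 7, 14 and 21. In the chromosome 19 windows both classes were therefore frequent, while in the other windows named the mirror class was less frequent. All these windows were picked for many members. In the chromosome 22 window the 8 members stood beside 21 regions with every peak, so they were a minority of its regions with FBS and CSS peaks.

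Other ZBTB7A regions lay near part of the members. A region with a peak in every list lay within 1000 bp of 331 members (8.27%), and a region of FBS alone within 1000 bp of 884 (22.1%). In the mirror class these shares were 5.91% and 20.3%, among regions with every peak 4.44% and 19.9%, and among regions of CSS alone 2.65% and 12.9%. Another member lay within 10000 bp of 260 members (6.50%), and a member lay that close to 7.52% of the mirror class and 5.38% of the regions with every peak. The median distance from a member to a region with every peak was 61397 bp. Regions with every peak hold a DHT peak, so these neighbours are in part the DHT neighbours counted above.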

How the data were processed

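ZBTB7A ChIP-seq of VCaP cells was used as 3 peak lists, 1 each for DHT, FBS and CSS. The submitters' processing notes name hg19 (GRCh37), MACS2 2.0.10.20131216, SAMtools 0.1.18 and BWA 0.7.2-r351. Not given in the sources used here are the control library, the q threshold, read filters and how the 2 DHT and the 2 CSS libraries were combined. Fold enrichment of each peak is a ratio deposited by the authors, as is its −log10 q. The −log10 p and the score deposited by the authors were not used. Depth is unknown, so these values describe peaks within a list. Where 1 threshold is set on several lists it need not mark equal strength, and a missing peak can reflect depth as well as binding.

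Peaks on chromosomes 1 to 22 and X that overlapped by at least 1 bp were merged, and regions were classed by the lists they held. Each region's strongest peak per list, by −log10 q, gave its strength, width and summit. Percentile ranks use the whole deposited list. Distances run between edges. The regions and the classes were chosen with earlier results of these data known. The rule for named regions took the 20 with the highest lower percentile of the FBS and CSS peaks, the 5 widest, and the 1 Mb windows with most members. Locations in genes, sequence words and gene lists were planned for an hg19 genome or annotation and were not analysed here. The merging code recovered 20000 of 20000 simulated regions and gave the same counts as bedtools 2.31.1 for 7 of 7 classes. Computation used scipy 1.17.1, pandas 2.3.3 and numpy 2.4.6 under Python 3.11.15, with figures by matplotlib 3.10.9. Alternatives varied thresholds, overlap, distance and chromosomes.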

Additional observations from a re-analysis of the deposited data

Results flagged for a closer look

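Regions with FBS and CSS peaks and no DHT peak also occurred on sequences outside chromosomes 1 to 22 and X, which none of the comparisons above used. There were 15 on chromosome Y, 14 on alternate haplotypes and 34 on unplaced or unlocalized sequences. Each count is above 3, the limit that a count of 0 allows, which is a low bar and no test against an expected number. The mirror class, with DHT and FBS peaks and no CSS peak, held 13, 15 and 20 regions there, and regions with a peak in every list numbered 55, 50 and 68.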

How the results depend on the processing

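Of 27 values under alternatives, 8 stayed near the reported value (a count within 1.5 times, a share or median within its counting error) and 19 moved. These labels do not record a change in the order of the 2 shares, which is described below. The 4002 regions became 2232, 389 and 1306 with a −log10 q of at least 5, of at least 10 and a fold enrichment of at least 5 in all lists, and 1521 with equal numbers of top peaks. With FBS and CSS peaks at a −log10 q of at least 5 or 10 and any DHT peak counted, the counts were 780 and 13 when the kept peaks were merged anew. The 774 and 12 given in the Results applied these thresholds to the regions as first merged. Requiring summits within 100 bp gave 2043, and an overlap of 50% of both peaks 1981. It was 3409 when no DHT peak was allowed within 500 bp. Settings added after seeing the data gave 3923 without regions within 1 Mb of the longest peak-free stretch of a chromosome and 3835 with a fold enrichment of at least 3.

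In the same order of settings (−log10 q of 5, of 10, fold enrichment of 5, equal numbers), the share of regions with FBS and CSS peaks that lacked a DHT peak was 35.6%, 49.7%, 24.5% and 18.3%, and 22.1% when a DHT peak within 500 bp counted as present. The mirror share was 32.6%, 32.3%, 27.0%, 21.1% and, within 500 bp, 22.3%. The mirror share was thus the higher one in 3 of these 5 settings and the lower one at both −log10 q thresholds. A threshold on every list drops weaker peaks of the missing list too, by construction. The median summit distance was 135 bp at a −log10 q of at least 5. No paired analysis was possible because each condition is 1 list, and no library could be left out. Gene locations and sequence words were not run.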

Other observations

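The 5 Mb next to the outermost peaks of chromosomes held a larger part of the members than of the regions with every peak. In the 1 Mb next to those peaks the intervals overlapped. An outermost peak need not lie at the end of its chromosome. Within 5 Mb of the outermost peak of a chromosome lay 522 of the 4002 regions (13.0%, 12.01 to 14.1%), 11.7% (10.7 to 12.8%) of the mirror class and 10.8% (10.3 to 11.4%) of the regions with every peak. Within 1 Mb the shares were 3.35% (2.81 to 3.95%) of the members and 2.99% (2.69 to 3.32%) of the regions with every peak. Within 5 Mb the share was 13.1% for regions of DHT alone, 8.60% (8.43 to 8.78%) for regions of FBS alone and 15.7% (15.0 to 16.4%) for regions of CSS alone.

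The immediate borders of the longest stretch of each chromosome without a peak in any list held a larger share of the members than of the mirror class, but within 1 Mb the intervals overlapped. Within 100 kb of such a border lay 33 of the 4002 regions (0.825%, 0.568 to 1.16%), 8 of the 3895 mirror regions (0.205%, 0.0887 to 0.404%) and 85 of the 11424 regions with every peak (0.744%, 0.595 to 0.919%). Within 1 Mb the shares were 1.97% (1.57 to 2.45%), 1.28% (0.954 to 1.69%) and 2.28% in the same order. A fold enrichment below 3 in both FBS and CSS was seen in 8 members, 7 of them within 1 Mb of a border. Of the 14 members whose CSS peak had a fold enrichment below 3, 10 lay within 1 Mb of a border, and their CSS −log10 q reached 19.1. Of the 20 strongest members, 3 lay within 1 Mb of a border. The region at chr3:90498776-90499154 (11.7 in FBS, 12.4 in CSS) adjoined it. The others were chr10:42406578-42406959 (12.7, 12.9), at 50.1 kb, and chr1:121260709-121261466 (16.6, 11.4), at 224 kb. The member with the highest FBS −log10 q, at chr16:46405098-46405537, lay 18.3 kb from a border.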
